A study of Mus musculus with 313 samples.

Results

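The ILC precursors (ILCP) of the fetal liver were the cells sorted as PLZF-positive, and every cell whose name carries the ILCP label was taken: 62 cells of sort 2 and 90 cells of sort 3, of 313 single cells in the data. The cells came from pooled livers of mouse fetuses at embryonic day 15 and were sorted as lineage-negative, with interleukin-7 receptor α and integrin α4β7 on their surface. The groups beside them carried the same 2 surface markers: aLP cells with neither PLZF nor CXCR5 (55 cells of sort 2 and 92 of sort 3), and 14 LTiP cells with CXCR5 but no PLZF, all from sort 3. No treatment, genotype or strain is given for any group, and the sources used here do not say how PLZF was read in the sorted cells. Cell names carry a 2 or a 3, read here as the sort without a label that says so. Each cell was measured with 100 quantitative RT-PCR assays. The question was how much the cells inside this single gate differ from each other: which transcripts nearly all of them hold, which vary together, and whether 1 cell holds transcripts of several ILC lineages.

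Innate lymphoid cells are lymphocytes without rearranged antigen receptors. They are grouped by their factors and cytokines: group 1 with T-bet and, in natural killer (NK) cells, Eomes; group 2 with high GATA3; and group 3, with the related lymphoid tissue inducer (LTi) cells, which make lymphotoxin and help form lymph nodes. PLZF, the zinc finger protein encoded by Zbtb16, marks a precursor that can give rise to several ILC groups. Its early factors include TCF-1 (gene Tcf7), TOX, GATA3, NFIL3 and ID2, several of which also act in early T cells.

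A transcript counted as detected in a cell when its Ct, the cycle of the PCR at which the fluorescence passed a set threshold, was below 24. A lower Ct means more cDNA. The level used below is 24 minus the Ct, in cycles, and 0 where the transcript was not detected. Every ILCP cell passed the cell filter of at least 1 housekeeping assay and 5 assays detected, and no 2 of them had equal profiles. The number of assays detected per ILCP cell ran from 23 to 55 with a median of 41 in sort 2, and from 26 to 53 with a median of 41 in sort 3. The mean was 40.7 in sort 2 and 40.8 in sort 3, against 32.2 and 28.2 in aLP. Percentages below are shares of the cells of 1 sort, and their intervals are exact 95% Clopper-Pearson intervals, which cover counting error only. Where a share is 0, the limit printed is 3 cells over the number of cells. A transcript that was not detected is not shown to be absent from the cell.

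The label was set against 7 markers of the population: Zbtb16, Tcf7, Tox, Rora, Ets1, Rxrg and Hes1. These had been proposed with results of these data known, and Zbtb16 encodes the protein of the gate. The gap to aLP below is therefore a description and not an independent check of the label. The median ILCP cell held 5.5 of them in sort 2 and 6 in sort 3, and 80.6% and 85.6% of the cells held at least 4. In aLP the median was 2 and 1, and 11.1% and 6.52% of the cells held at least 4. LTiP cells held a median of 4, and 71.4% of the 14 cells held at least 4. No ILCP cell of either sort held exactly 2 markers. Zbtb16 itself was not detected in 4 of 62 ILCP cells of sort 2 and 3 of 90 of sort 3. Of these 7 cells, 5 held at most 1 of the 7 markers and gave 23 to 32 detected assays, and the other two held 5 and 4 markers with 40 and 39 detected assays.

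**Figure D1:**
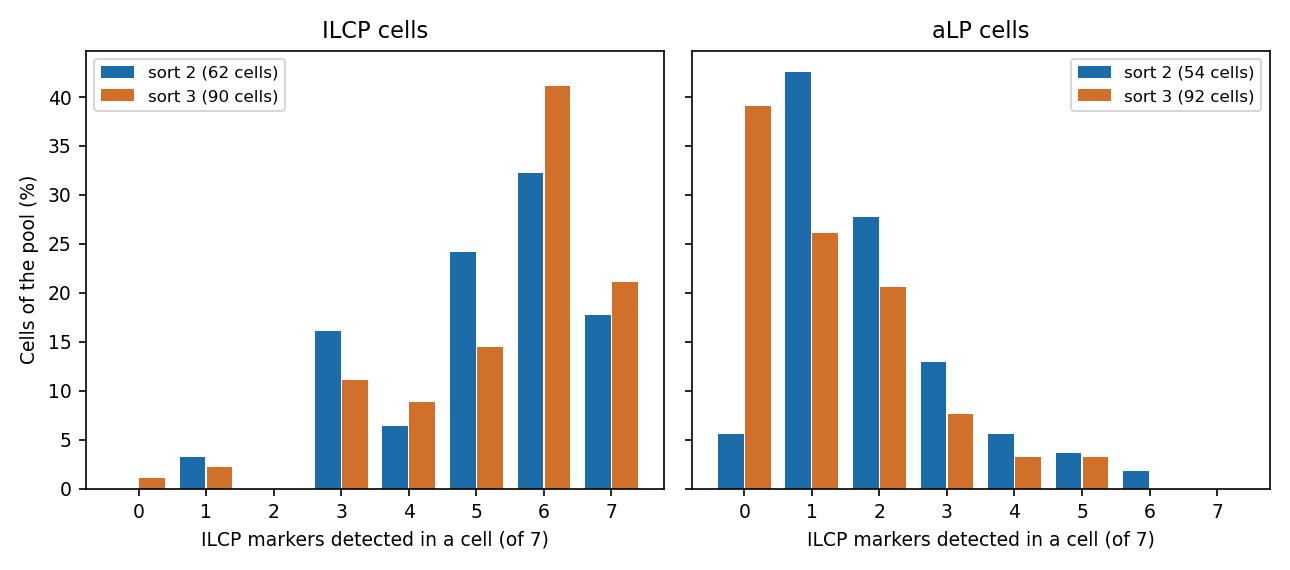
Share of the cells of each pool (y axis, percent) by the number of the 7 ILCP markers detected in the cell (x axis), for ILCP cells on the left and aLP cells on the right, with a bar for each sort. Most ILCP cells lie at 5 to 7 markers and most aLP cells at 0 to 2, and a few ILCP cells lie at 0 or 1.

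Markers of other cell types that the gate could hold were few on the panel. Of the B lineage, Pax5 and Ebf1 were detected in no ILCP cell, which allows a share of up to 4.84% in sort 2 and 3.33% in sort 3, and Bcl11a in 4.84% and 2.22%. Ncr1, which encodes the NK receptor NKp46, was detected in 4.84% and 1.11%. Lck, a kinase of T cells, was detected in 17.7% and 27.8%, and Itga2b, an integrin chain of megakaryocytes and early progenitors, in 22.6% and 34.4%, against 1.85% and 1.09% of aLP cells. The gene of IRF8, a factor of myeloid, dendritic and B cells, gave 40.3% and 33.3% in ILCP against 74.1% and 79.3% in aLP. The part of other cell types in the results below was not tested.

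The ILCP profile had a shared core and a wide variable part. In both sorts 13 of 100 assays reached a share of 90% or more. Besides the housekeeping assays Actb, Gapdh and Hprt and besides Zbtb16, they included the receptor gene Notch2 (100% in both sorts) and the Notch pathway gene Rbpj (90.3% and 94.4%). Also among them were the co-repressor gene Tle3 (100% and 96.7%), Runx3 (90.3% and 93.3%) and its partner gene Cbfb (95.2% and 92.2%), and the integrin gene Itga4 (95.2% and 98.9%). The rest were Tox (100% and 92.2%), Lmo4 (96.8% and 97.8%) and Hif1a (96.8% and 96.7%), which encode transcriptional regulators. Tcf7 stood just below that level in sort 2, with 88.7%, and at 96.7% in sort 3. Part of the core was shared with aLP and thus not particular to ILCP. Actb, Gapdh and Notch2 reached 100% in both aLP sorts, Itga4 96.3% and 100%, and Cbfb 92.6% and 90.2%. Runx3 (87.0% and 68.5%) and Hif1a (83.3% and 73.9%) stayed below 90% in both aLP sorts. Rbpj (75.9% and 90.2%) and Lmo4 (88.9% and 94.6%) did so in sort 2 only. At the other end, 5 assays were detected in no ILCP cell: Dtx1, a Notch pathway gene, the B cell factor genes Pax5 and Ebf1, Il1r1, and Zbtb7c. The largest class was that of transcripts in a minority of the cells, with 31 assays between 10% and 50% in both sorts.

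Several regulators of ILC development were detected in some ILCP cells and not in others. Nfil3, a factor needed early in the ILC lineage, was detected in 54.8% and 44.4% of ILCP cells. Il7r, whose protein the sort selected, was detected in 54.8% and 42.2%, although the protein was on every sorted cell. Hes1, a Notch target gene, gave 43.5% and 62.2%, against 1.85% and 9.78% of aLP cells. Id2, which encodes an inhibitor of E proteins, was detected in 37.1% and 35.6%. Its median Ct was 22.7 and 22.8, close to the limit, and its share moved with that limit: with a limit of 22 it was 14.5% and 3.33%, and with no limit 71.0% and 77.8%.

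Among the cells that held a transcript, the amount also varied. In Zbtb16-detecting cells the Ct ran from 13.2 through a median of 15.9 to 23.0 in sort 2, and from 13.4 through 15.3 to 19.3 in sort 3. For Tcf7 the lowest, median and highest Ct were 13.5, 16.1 and 21.8 in sort 2 and 13.5, 15.5 and 21.8 in sort 3. Both genes thus spanned more than 5 cycles inside the gate in each sort. The widest spread, of assays with at least 10 detecting cells in each sort, was that of Igf2, an imprinted growth factor gene, with a SD of Ct of 2.30 and 2.49, followed by Lmo4 (1.95 and 2.23), Irf8 (1.84 and 2.29) and Tcf7 (2.2 and 1.9). The narrowest were Fbxo27 (0.619 and 0.510), Adam10 (1.12 and 0.445), Gata3 (0.81 and 0.78) and Lat (1.03 and 0.699). Cells with Gata3, the factor gene of group 2 ILCs and T cells, lay within 17.8 to 20.8 in sort 2 and 18.4 to 21 in sort 3, and differed mainly in whether the transcript was detected.

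The sorts gave similar profiles. Across the 95 assays detected in at least 1 ILCP cell, the shares of sort 2 and sort 3 correlated with r = 0.933 (Spearman 0.926), and the median size of the difference was 6.13 percentage points. This is across assays, which are not independent replicates. For 8 of 100 assays the intervals of the sorts did not overlap, 4 higher (4% of all assays) and 4 lower (4%) in sort 3. With 1 pool a side no test was possible.

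**Figure D2:**
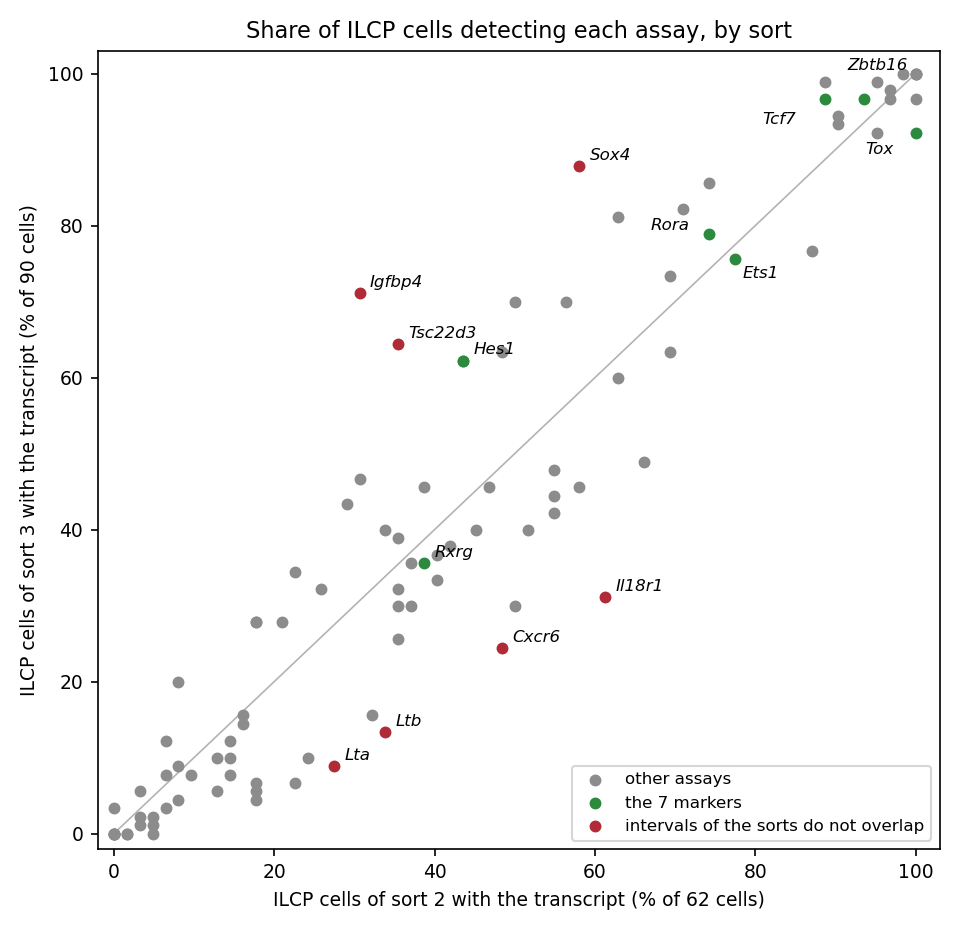
Share of ILCP cells in which each assay was detected, in sort 2 (x axis, percent of 62 cells) and sort 3 (y axis, percent of 90 cells), with 1 point per assay and a line of equal shares; values of 2 assays are not shown. Most points lie near the line, and the red points, such as Igfbp4 at 30.6% and 71.1%, are those whose exact 95% intervals do not overlap.

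Lymphotoxin and receptor transcripts made up the 4 assays that were lower in sort 3. Lta and Ltb, which encode the lymphotoxin chains, were detected in 27.4% and 33.9% of ILCP cells in sort 2 and in 8.89% and 13.3% in sort 3. Il18r1, the interleukin-18 receptor gene, went from 61.3% to 31.1%, and Cxcr6, a chemokine receptor gene, from 48.4% to 24.4%. The aLP shares of these 4 assays were also lower in sort 3, with Il18r1 at 16.7% and 10.9% and Cxcr6 at 27.8% and 19.6%. Higher in sort 3 were Igfbp4, which encodes a binding protein of insulin-like growth factors (30.6% and 71.1%), Sox4, a factor gene of lymphoid progenitors (58.1% and 87.8%), and Tsc22d3, a glucocorticoid-responsive gene (35.5% and 64.4%). In aLP, Igfbp4 and Sox4 went the other way, from 79.6% to 46.7% and from 74.1% to 34.8%, whereas Tsc22d3 went from 66.7% to 96.7%. The difference between these changes was not tested. Cell numbers, which may stand for plates or chips, were spread differently over the sorts, with 52 of the 62 cells of sort 2 numbered 1 to 96 and 19 of the 90 of sort 3. Within numbers 1 to 96, Igfbp4 was detected in 30.8% of sort 2 and 78.9% of sort 3, and Sox4 in 61.5% and 89.5%. In the same range Il18r1 stood at 63.5% and 42.1%, and Lta at 28.8% and in 0 of 19 cells, which allows up to 15.8%.

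Transcripts varied together across single ILCP cells, and much of this recurred in both sorts. For the 72 assays with a share of 10% or more in both ILCP sorts, Pearson's r of the levels was computed over the 62 and the 90 cells separately. These r values are descriptions over cells that share a sort, and carry no p-value. Of 2556 pairs, 69.6% had the same sign in both sorts. In 120 pairs r was at least 0.3 in size with the same sign in both, of which 18 were negative, and in 0 pairs it was at least 0.3 in size with opposite signs. Across the 1176 pairs of the 49 assays with such a share in all 4 ILCP and aLP pools, the r values of the ILCP sorts correlated at 0.614, and those of the aLP sorts at 0.359. Between ILCP and aLP of the same sort the value was 0.415 in sort 2 and 0.270 in sort 3. The median r of a pair was 0.0872 and 0.0568 in ILCP, against 0.261 and 0.0677 in aLP. The aLP cells of sort 2 were uneven, with 8 to 45 assays detected per cell (SD 9.53), against 18 to 47 (SD 5.68) in sort 3. Actb and Gapdh had r = 0.927 and 0.532 in these aLP pools. The part of such uneven cells in the aLP values was not tested. The housekeeping assays Actb and Gapdh correlated with r = 0.734 and 0.640 in ILCP, and the part of the amount of cDNA per cell in the pairs was not tested. With the number of assays detected per cell held constant, the partial r of Zbtb16 and Tcf7 was 0.631 and 0.711, and that of Ets1 and Rora 0.697 and 0.623.

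**Figure D3:**
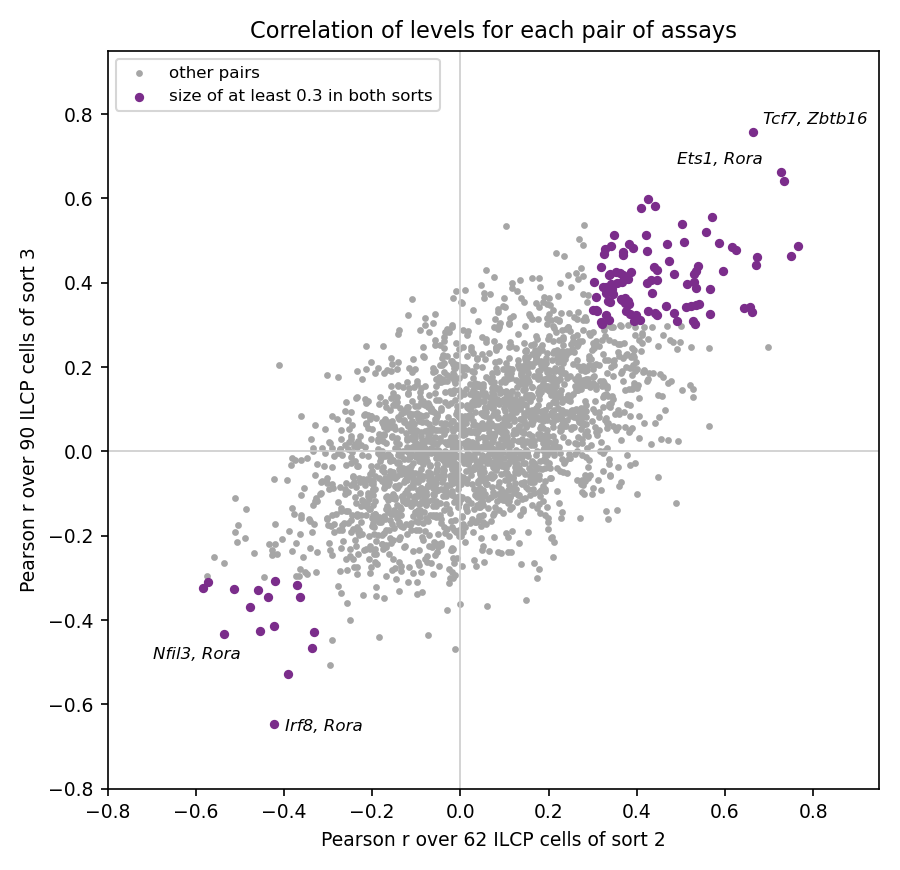
Pearson's r of the levels of each pair of assays over the 62 ILCP cells of sort 2 (x axis) and the 90 of sort 3 (y axis), with 1 point per pair; pairs that hold either of 2 unreported assays are left out. Purple points are at least 0.3 in size with 1 sign in both sorts, and none lies in the quadrants of opposite sign.

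Leaving out pairs of housekeeping assays, many of the strongest positive pairs fell around 2 centres. The first held Zbtb16, Tcf7, Tox and Cd27, which encodes a receptor of the tumour necrosis factor family. Zbtb16 and Tcf7 had r = 0.663 in sort 2 and 0.756 in sort 3. Cd27 had r = 0.557 and 0.520 with Tcf7 and 0.503 and 0.539 with Zbtb16. Tox had r = 0.441 and 0.583 with Zbtb16 and 0.349 and 0.513 with Tcf7. These pairs were positive in both aLP pools too, so they are not particular to ILCP. There r was 0.505 and 0.563 for Zbtb16 and Tcf7, 0.373 and 0.577 for Tox and Tcf7, and 0.0504 and 0.274 for Cd27 and Zbtb16. Next in likeness to Zbtb16 were H19, an imprinted noncoding RNA gene (0.383 and 0.493), and Megf10, which encodes a cell surface protein (0.388 and 0.426). Among the 53 and 86 cells with both transcripts detected, the Ct values of Zbtb16 and Tcf7 still correlated at 0.744 and 0.663. The relation of this pair was thus one of amount and not only of detection. For Tox such values were 0.599 and 0.467 with Zbtb16 and 0.487 and 0.343 with Tcf7. For Cd27 they were lower than over all cells, 0.466 and 0.168 with Tcf7 and 0.345 and 0.240 with Zbtb16. Megf10 with Zbtb16 gave 0.575 and -0.00221.

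The second centre held Ets1, Rora, Rxrg and Ccr8. Ets1 and Rora, the factor gene needed for group 2 ILCs, had r = 0.728 and 0.662. They were detected together in 44 of 62 and 63 of 90 cells, where the product of their shares gives 35.6 and 53.6 cells. Ccr8, a chemokine receptor gene, had r = 0.572 and 0.557 with Ets1. Rxrg, which encodes a retinoid X receptor, had r = 0.586 and 0.495 with Rora. Ets1 also varied with Il18r1 (0.673 and 0.460) and with Foxo1, a factor gene of lymphocyte survival and homing (0.507 and 0.496). Igf2 joined this side through Bcl11b, a factor gene of T cells and group 2 ILCs (0.469 and 0.493), and through Rxrg (0.473 and 0.452). Among cells with both transcripts detected, the Ct values correlated less in both sorts for each of these pairs except Igf2 with Rxrg (0.726 and 0.344). They gave -0.0204 and 0.147 for Ccr8 with Ets1, 0.286 and 0.406 for Ets1 with Rora, and 0.0964 and 0.145 for Bcl11b with Igf2. Much of the relation in those pairs thus lay in detection. Rora and Ets1 had the most partners at 0.3 in both sorts, 12 and 11. Outside these centres, Itga4 and Sox4 had r = 0.626 and 0.477, and Il18r1 and Ltb 0.616 and 0.484. Several of these pairs were positive in aLP too. There r was 0.608 and 0.137 for Ets1 with Rora, 0.572 and 0.343 for Ets1 with Il18r1, and 0.240 and 0.233 for Ets1 with Foxo1. It was 0.703 and 0.305 for Itga4 with Sox4, and 0.465 for Rora with Rxrg in sort 2. Ccr8 with Ets1 (0.292 and -0.0852) and Il18r1 with Ltb (0.535 and -0.0465) were positive in aLP of sort 2 only.

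Between genes of the first centre and genes of the second, r was mostly low or differed by sort. Ets1 had r = 0.0284 and 0.336 with Zbtb16, -0.0219 and 0.214 with Tcf7, and -0.422 and -0.066 with Tox. Rora had r = 0.103 and 0.535 with Zbtb16 and 0.0575 and 0.431 with Tcf7. Hes1 was loosely tied to both sides, with r = 0.343 and 0.486 with Rora and 0.261 and 0.422 with Zbtb16.

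The promoters of 4 of these genes are shown because pairs among them vary together: Tcf7 with Cd27 on one side and Rora with Ccr8 (r = 0.595 and 0.427) on the other. Each is the RefSeq sequence of assembly GRCm38.p6 in a window of 300 bases around a start site, most of it upstream, read along the gene. They lie at chr11:52282546-52282845, reverse strand (of the 2 Tcf7 windows in the table, the one with a motif match), chr6:125236978-125237277, reverse strand, chr9:68653536-68653835, forward strand, and chr9:120091883-120092182, forward strand. Capitals mark CTTTGA, the core bound by TCF-1, or CGGAAG, an ETS core, on either strand. The motifs do not overlap each other here.
Tcf7: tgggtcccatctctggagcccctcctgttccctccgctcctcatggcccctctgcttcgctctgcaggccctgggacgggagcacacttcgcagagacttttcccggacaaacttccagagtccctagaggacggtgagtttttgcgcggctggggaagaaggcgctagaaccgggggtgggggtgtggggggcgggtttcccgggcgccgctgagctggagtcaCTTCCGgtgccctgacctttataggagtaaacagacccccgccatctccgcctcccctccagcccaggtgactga
Cd27: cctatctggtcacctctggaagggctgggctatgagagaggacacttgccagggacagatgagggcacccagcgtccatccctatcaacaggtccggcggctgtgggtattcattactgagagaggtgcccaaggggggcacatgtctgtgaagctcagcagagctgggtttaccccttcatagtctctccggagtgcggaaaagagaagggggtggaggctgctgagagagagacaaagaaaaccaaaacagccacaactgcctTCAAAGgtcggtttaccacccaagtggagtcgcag
Rora: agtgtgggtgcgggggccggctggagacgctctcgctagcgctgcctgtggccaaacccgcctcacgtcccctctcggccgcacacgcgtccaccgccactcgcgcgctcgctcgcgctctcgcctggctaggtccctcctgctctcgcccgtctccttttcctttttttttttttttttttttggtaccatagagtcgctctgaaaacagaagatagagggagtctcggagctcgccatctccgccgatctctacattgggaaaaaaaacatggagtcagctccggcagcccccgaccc
Ccr8: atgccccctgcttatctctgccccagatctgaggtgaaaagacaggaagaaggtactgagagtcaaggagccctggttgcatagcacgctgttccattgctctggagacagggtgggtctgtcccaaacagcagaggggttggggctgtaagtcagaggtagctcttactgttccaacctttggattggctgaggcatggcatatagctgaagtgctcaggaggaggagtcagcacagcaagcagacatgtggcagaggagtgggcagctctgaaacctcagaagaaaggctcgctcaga
CTTTGA was found once in the Cd27 window, as TCAAAG, and CGGAAG once in this Tcf7 window, as CTTCCG. The Rora and Ccr8 windows held neither. Of 32851 windows of this length, 16% held CTTTGA and 16.9% held CGGAAG, so these matches are common ones.

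Of the 6 negative pairs that ranked highest by the smaller size of r of the sorts, 4 paired Irf8, Nfil3 or Tle1 with a gene of these centres. Irf8 had r = -0.422 and -0.647 with Rora and -0.390 and -0.528 with Zbtb16. Irf8 and Rora were detected together in 13 of 62 and 15 of 90 ILCP cells, where the product of the shares gives 18.5 and 23.7 cells. Of the 6 partners of Irf8 at 0.3 in both sorts, 5 were negative. Nfil3 had r = -0.536 and -0.432 with Rora, and Tle1, a co-repressor gene, had r = -0.454 and -0.427 with Ets1. The rest of the 6 were Ccr8 with Itga4 (-0.423 and -0.413) and Il18r1 with Sox4 (-0.476 and -0.369). With levels scaled to the housekeeping assays, Ccr8 and Itga4 had r = -0.288 and -0.254, and the others of the 6 stayed at 0.3 or more in size. Without an outlier of very low Hprt Ct, which the values here include, Ccr8 and Itga4 had r = -0.341 in sort 3. Other negative pairs at 0.3 in both sorts, named after their values were seen, were Bcl11b with Bcl2 (-0.572 and -0.310), Il2rb with Itga4 (-0.583 and -0.324) and Itga4 with Tbx21 (-0.513 and -0.327). Some of these values were smaller in size without the marker-poor cells. Over cells with at least 4 of the 7 markers, a choice made after the values were seen and one that uses Rora itself, Irf8 and Rora had r = 0.0668 and -0.387, and Nfil3 and Rora -0.340 and -0.202. Over the same cells Ets1 and Rora had r = 0.438 and 0.444, and Irf8 and Zbtb16 -0.401 and -0.371.

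**Figure D4:**
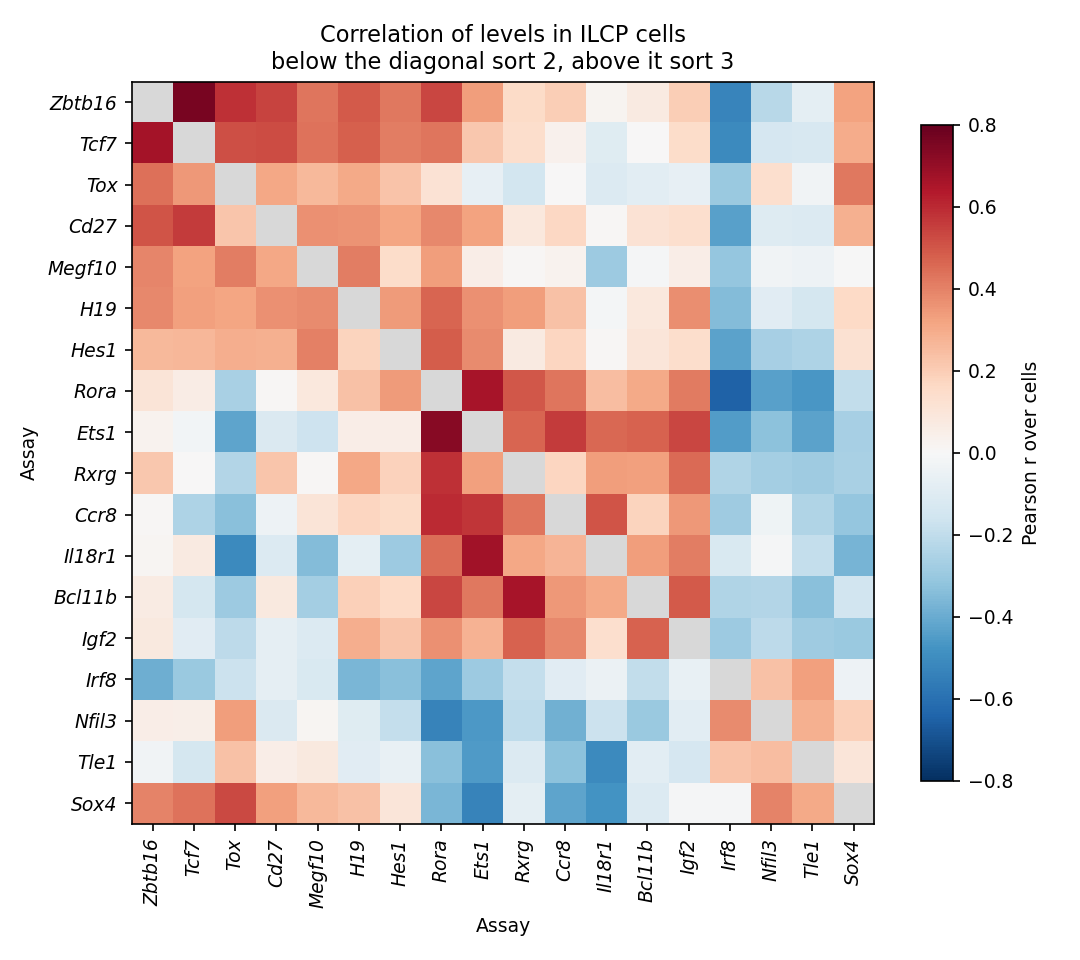
Pearson's r of levels over ILCP cells for 18 assays, with sort 2 below the diagonal and sort 3 above it; red is positive, blue negative, and the diagonal is grey. The assays were chosen and ordered after their r values were seen: the block at the upper left holds Zbtb16, Tcf7, Tox and Cd27, the block in the middle Rora, Ets1, Rxrg and Ccr8, and Irf8, Nfil3 and Tle1 are mostly blue against the latter.

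The leading axis of variation had Ets1 and Rora at the same end in both sorts. Principal component 1 of the centred levels held 19.4% of the variance in sort 2 and 16.8% in sort 3, and component 2 held 10.6% and 12%. In sort 2 Ets1 (loading 0.310) and Rora (0.246) lay opposite to Sox4 (-0.305) and Bcl2, a survival gene (-0.239). In sort 3 Igf2 (0.363), Ets1 (0.336), Rora (0.313), H19 (0.261) and Rxrg (0.244) lay opposite to Irf8 (-0.214). The loadings of component 1 correlated at 0.662 across the 72 assays between the sorts, but component 2 of sort 2 correlated with component 1 of sort 3 at 0.65 as well, so the axes of the sorts do not match one to one. Component 1 correlated with the number of detected assays per cell at 0.195 and 0.430, and with the Gapdh level at -0.442 and -0.214. The part of these in the axis was not tested.

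A part of the single ILCP cells held transcripts of more than 1 ILC programme. The programmes were ILC1 and NK (Tbx21, which encodes T-bet, and Eomes), ILC2 (Gata3, Bcl11b, Il17rb and Il1rl1) and LTi and ILC3 (Cxcr5, Lta, Tnfsf11, Il23r, Cd4 and 1 assay not reported). At least 2 of the 3 were detected in 27 of 62 cells of sort 2 (43.5%, interval 31 to 56.7) and 38 of 90 of sort 3 (42.2%, 31.9 to 53.1). The count depends on the genes that define the programmes: it was 30.6% and 18.9% without Gata3 and Cxcr5, and 22.6% and 15.6% with transcription factor transcripts only. With all genes, the shares were 14.8% and 7.61% in aLP and 1 of 14 cells in LTiP. The sort used CXCR5, whose gene is in the LTi and ILC3 list: aLP cells were taken without it and LTiP cells with it. The groups thus differ by the sort in a programme gene, and the count without Cxcr5 was made for ILCP only. The part of the sort in the difference was not tested. All 3 programmes were detected in 14.5% and 7.78% of ILCP cells, and none in 8.06% and 15.6%. The number of assays detected per cell was also higher in ILCP, and its part in the difference was not tested.

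**Figure D5:**
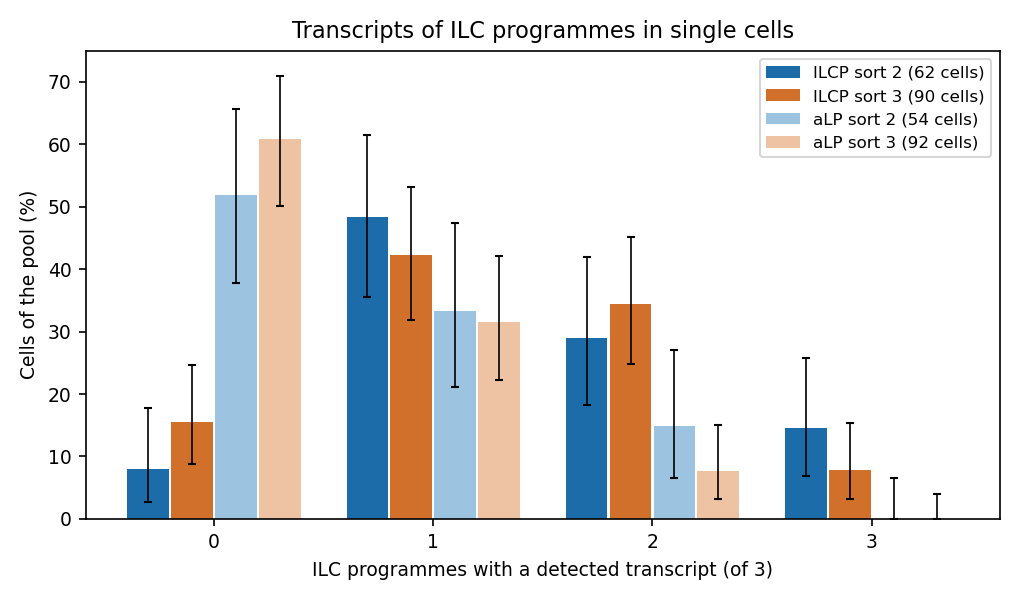
Share of the cells of each pool (y axis, percent, with exact 95% intervals) by the number of ILC programmes with at least 1 detected transcript (x axis, 0 to 3), for ILCP and aLP in each sort. ILCP cells with 2 programmes made up 29% and 34.4%, against 14.8% and 7.61% of aLP cells. The aLP cells were sorted without CXCR5, whose gene counts in a programme.

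The combinations were set against the product of the shares of their programmes. ILC1 and NK transcripts were detected in 32.3% and 16.7% of ILCP cells, and without another programme in 2 of 62 and 1 of 90 cells. ILC2 transcripts were detected in 61.3% and 54.4% of the cells, and alone in 27.4% and 20%. LTi and ILC3 transcripts were detected in 56.5% and 63.3%, and alone in 17.7% and 21.1%. No product was computed for cells with 1 programme alone, so those counts, also that for ILC1 and NK, are not set against the shares. ILC1 and NK transcripts met LTi and ILC3 transcripts in 24.2% and 15.6% of the cells, above the product of the shares, 18.2% and 10.6%, though within the intervals of 14.2 to 36.7 and 8.77 to 24.7. ILC1 and NK with ILC2 (19.4% and 7.78%, product 19.8% and 9.07%) and ILC2 with LTi and ILC3 (29% and 34.4%, product 34.6% and 34.5%) lay near or below the product. All of these products lay within the intervals of the shares, but those intervals do not test association. The correlation of detection (phi) was 0.258 and 0.278 for ILC1 and NK with LTi and ILC3. It was -0.0183 and -0.0698 for ILC1 and NK with ILC2, and -0.231 and -0.00154 for ILC2 with LTi and ILC3. No association and no difference between the combinations was tested.

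Gene by gene, co-detection across programmes lay above the product of the shares for some pairs and below it for others. For the pairs across programmes named here, the product lay within the exact interval of the share in each sort, with 1 exception. That was Bcl11b with Cxcr5 in sort 2 (interval 0.393 to 11.2%, product 13.7%). Such intervals do not test association here either. Tbx21 was detected in 32.3% and 15.6% of ILCP cells, with a lowest, median and highest Ct of 15, 17.3 and 19.8 in sort 2 and 15.7, 19.7 and 21.4 in sort 3. Bcl11b was detected in 35.5% and 32.2% of ILCP cells, while no aLP cell of either sort held it, which allows up to 5.6% and 3.3%. Gata3 was detected in 37.1% and 30%. Tbx21 and Gata3 were detected together in 7 and 3 cells, near the product of 7.42 and 4.20 cells. Tbx21 and Bcl11b were detected together in 7 and 2 cells, against 7.10 and 4.51. Tbx21 and Lta were detected together in 8 and 3 cells, above the product of 5.48 and 1.24, and Tbx21 and Cxcr5 in 8 and 10, against 7.74 and 6.38. Bcl11b and Lta were detected together in 5 and 5 cells, against 6.03 and 2.58. Eomes was detected in 5 and 4 ILCP cells, of which 5 and 3 also held Tbx21. The gene of CXCR5, the chemokine receptor that defines LTiP, gave 38.7% and 45.6% in ILCP and 85.7% in LTiP. Bcl11b and Cxcr5 were detected together in 2 of 62 cells of sort 2, where the product gives 8.52 cells, and in 10 of 90 of sort 3, where it gives 13.2. Their levels had r = -0.433 and -0.220. The other LTi genes were rarer in ILCP: Cd4 was detected in 14.5% and 7.78%, and Tnfsf11 and Il23r each in 1 cell of sort 2 and in 0 of 90 cells of sort 3, which allows up to 3.33%. Il17rb, a receptor gene of group 2 ILCs, was detected in 16.1% and 14.4%, and Il1rl1, the interleukin-33 receptor gene, in 17.7% and 5.56%.

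Set against aLP, with the pool of a group in a sort as the replicate, 6 of 91 assays passed limma on the mean level with Benjamini-Hochberg adjustment over all 91: 5 were higher in ILCP (5.49% of those tested) and 1 was lower (1.1%), and 27 had an unadjusted p under 0.05. Of the 7 markers, which had been proposed with results of these data known, 5 were among them: Zbtb16, whose protein the gate selects, Rora, Tcf7, Rxrg and Ets1. Hes1 (difference 2.27 ± 0.419 cycles, SE, adjusted p = 0.0685 in limma) and Tox did not pass. Mean levels of Rora were 5.03 and 5.32 cycles in ILCP and 0.622 and 0.0795 in aLP (sorts 2 and 3), with a limma adjusted p of 0.00615. Irf8, the assay that was lower, stood at 2.21 and 1.77 against 4.66 and 5.08, with a limma adjusted p of 0.0138. The groups did not overlap for either gene. With the sort number as a block in limma, Zbtb16 and Rora still passed (adjusted p = 0.0458 for each). Irf8, Tcf7, Rxrg and Ets1 then had a limma adjusted p of 0.0611 and did not pass. The calls of these 6 in limma did not hold when either ILCP pool was left out, of sort 2 or of sort 3. Such fits take the spread within groups from the 2 aLP pools alone. Within sorts 2 and 3 the difference was 6.41 and 7.80 cycles for Zbtb16, and -2.45 and -3.31 for Irf8. Of 14 tested ILC precursor factors 4 were higher and 0 lower, with a median difference of 1.52 cycles against 0.537 over all 91. The 4 were Zbtb16, Tcf7, Rora and Ets1, all among the 7 markers. Tox and Hes1 were in both lists as well, so this count and median are not a result separate from the markers. Of 6 tested genes of ILC1 and NK cells and 8 of LTi cells and ILC3, 0 passed in limma in either direction, with medians of 0.757 and 0.421. Of 9 tested ILC2 genes, Rora alone passed (median 0.544).

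The spread among cells was compared in the same way, as the log2 SD of Ct over the cells that detected a transcript. In limma with Benjamini-Hochberg adjustment, 0 of 46 assays (0%) differed between ILCP and aLP, 2 had an unadjusted p under 0.05, and the median difference was -0.0825. Nearest to the threshold was H19, with a SD of Ct of 1.73 and 1.98 in ILCP and 0.878 and 1.01 in aLP, a difference of 0.98 ± 0.30 on the log2 scale (SE, limma adjusted p = 0.295). Tsc22d3 was next, with 0.727 and 1.04 against 1.96 and 1.35 (-0.91 ± 0.33, limma adjusted p = 0.377). The aLP pools differed between themselves: the SD of Ct of Actb was 2.61 in sort 2 and 0.729 in sort 3, against 1.17 and 0.727 in ILCP. The part of uneven aLP cells in this comparison was not tested.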

How the data were processed

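Ct values of 100 assays in single cells were measured with a microfluidic Biomark system after 22 cycles of preamplification, per the labels' protocols. What the authors deposited are Ct values as measured, with no normalization per the file headers, and there is no sequencing depth behind them. The labels' protocols describe TaqMan or Solaris chemistry while another label names SYBR Green. One aLP cell with too few assays was left out, which left 312 cells, and no column of values went unused. Of the 6358 Ct values of ILCP cells, 160 (2.52%) lay at or above the limit of 24 and counted as not detected. No per-cell scaling was applied, except where values scaled to the housekeeping assays are named.

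A pool was all cells of 1 group and 1 sort. No label says that the sorts were separate litters, so p-values measure only the spread between 2 pools per group. limma 3.58.1 (R 4.3.3; lmFit, eBayes) was fitted to the 4 ILCP and aLP pools, with Benjamini-Hochberg adjustment and a threshold of 0.05, on mean levels (assays with a share of 5% or more in 1 pool) and on the log2 SD of Ct (at least 10 detecting cells in each pool). It was tested on simulated data. Shares, correlations, principal components and counts of programmes are descriptions, made in Python 3.11.15 with pandas 2.3.3, scipy 1.17.1 and numpy 2.4.6.

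Members, lists and tests were chosen with earlier results of these data known. Named genes were the 7 markers, assays in at least 90% of the cells, programme transcripts, assays whose sorts lay apart, the strongest pairs and marker partners, the largest loadings, called assays, list examples, and the assays nearest 50% or with the widest and narrowest spread. The promoters, their motifs and the counts of partners were chosen after values were seen. Values of 2 assays, by themselves or in pairs, are left out of the text. Names matched a GRCm38.p6 gene table by symbol for 98 assays and by synonym for 1.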

Additional observations from a re-analysis of the deposited data

How the results depend on the processing

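Among assays called in mean level, the 6 of the reported fit were all among those called under every alternative listed here except the block and the fits without an ILCP pool. The counts that moved were 12 with a detection limit of 26, 16 with no limit, 11 with the assay filter at 20% and 14 on shares of detecting cells. With the sort number as a replicate block 2 passed, Zbtb16 and Rora; the number does not show pairing, since the deviations of same-numbered pools correlated at -0.047, and for spread the block gave 0. Leaving out 1 pool at a time gave 0 to 20 calls in level and 0 to 7 in spread, where the 7 came without the aLP pool of sort 3. The interquartile range in place of the SD gave 1 call in spread, Tle1, and the other alternatives for spread gave 0. The mean number of assays per ILCP cell was 39.1 with a limit of 22, 41.4 with 26, 41.8 with none, 40.9 with stricter cells and 40.5 in the main number ranges, all further from the reported value than the small SD of the sorts, and 40.7 to 40.8 in single sorts. At a cut of 95% in place of 90%, 8 assays were detected throughout. Of pairs, 38 reached 0.3 by phi of detection, and 352 and 36 at cuts of 0.2 and 0.4. Cells with at least 2 programmes fell to 30.6% and 18.9% without Gata3 and Cxcr5, and to 22.6% and 15.6% with transcription factor transcripts only; no programme transcript was detected in most cells of a sort, so leaving out such a one did not apply. Component 1 scaled to unit variance held 14.4% of the variance. The cause of these changes was not tested. Of 18 named pairs, 18 kept their signs in both sorts under each alternative except phi and the marker-rich cells, with 17 each. Numbers of cells and of pools limit the precision throughout.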
